A study of Mus musculus with 4 samples.

Results

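The genes described here are 8 that encode RNA-binding regulators of the lifetime of inflammatory transcripts: Zfp36, Zfp36l1, Zfp36l2, Zc3h12a, Zc3h12c, Rc3h1, Rc3h2 and Elavl1. They were taken by name from a table of gene-level array signals in which 19938 genes carry a single symbol, and each is represented by its brightest probe on average. The 8 genes were chosen with earlier results of these data known. The cells were bone-marrow-derived macrophages of female BalbC mice, differentiated for 7 days in medium conditioned by L929 cells, which supply macrophage colony stimulating factor to every group. The groups were LPS/zVAD/Nec-1 (LPS at 10 ng/ml, zVAD at 50 µM and Nec-1 at 30 µM), LPS/zVAD (without Nec-1, at the same doses), LPS (10 ng/ml alone) and Control (untreated). LPS is bacterial lipopolysaccharide, the ligand of TLR4, zVAD is a pan-caspase inhibitor, and Nec-1 (necrostatin-1) inhibits the kinase RIPK1. The study asked which inflammatory changes depend on that kinase. Each group had 1 array, so differences have no replicate check and no p-value, and their precision is limited by the number of arrays. The sources used here do not give treatment times or how many mice stand behind each array. Neither inhibitor was analysed here without LPS, and Nec-1 was analysed only together with zVAD.

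Transcripts of many cytokines carry AU-rich elements or stem-loops in their 3' ends. Tristetraprolin (TTP, encoded by Zfp36) and its relatives encoded by Zfp36l1 and Zfp36l2 bind AU-rich elements through CCCH zinc fingers and recruit the CCR4-NOT deadenylase, so that the transcript is shortened and destroyed. Regnase-1 (Zc3h12a) and its relative Regnase-3 (Zc3h12c) are ribonucleases with a CCCH finger, and Regnase-1 cleaves stem-loop transcripts such as that of Il6. Roquin-1 (Rc3h1) and Roquin-2 (Rc3h2) bind similar stem-loops and bring in deadenylation and decapping factors. HuR (Elavl1) binds AU-rich and U-rich stretches and mostly protects the bound transcript. In macrophages TTP is known for restraining Tnf and Regnase-1 for restraining Il6 and Il12b.

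The values are log2 signals, and a gene is called higher or lower when 2 arrays differ by 2-fold or more, which is a rule of size and no test. Levels of different genes come from different probes and are not compared with each other. Of all genes, 12203 reached the median of all values (log2 6.47) on at least 1 array and form the background for every share below. All 8 regulators passed, and all 8 were above that level on all 4 arrays. Array medians were 6.49 with LPS/zVAD/Nec-1, 6.46 with LPS/zVAD, 6.41 with LPS and 6.52 in Control. All 10 macrophage markers passed the filter, with median log2 signals of 12.87, 12.43, 12.89 and 12.47 in the same order. Among markers of other cells, 7 of 9 measured neutrophil, 6 of 7 stromal, 1 of 5 B cell, 2 of 7 T and NK cell, 2 of 6 dendritic cell, 1 of 6 mast cell and basophil and 1 of 4 erythroid genes passed. The summed neutrophil marker signal was log2 11.6, 11.5, 12.0 and 11.6 in that order of arrays, and the summed stromal marker signal was 10.0, 9.78, 10.1 and 9.76. The part of other cells in the results was not tested, and in such bulk RNA fewer expressing cells and less RNA per cell cannot be told apart.

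The 300 bases around the transcription start, 250 before it and 50 from it on, are shown for the 3 regulators that were higher with LPS in every array and for Rc3h1, which was higher with LPS/zVAD. The sequences are RefSeq's for GRCm38.p6, read 5' to 3' on the strand of the gene, and the capitals mark matches to the motifs listed after them. For Zc3h12c the first of its 2 listed starts is shown.
Zfp36 (chr7:28379179-28379478, minus strand): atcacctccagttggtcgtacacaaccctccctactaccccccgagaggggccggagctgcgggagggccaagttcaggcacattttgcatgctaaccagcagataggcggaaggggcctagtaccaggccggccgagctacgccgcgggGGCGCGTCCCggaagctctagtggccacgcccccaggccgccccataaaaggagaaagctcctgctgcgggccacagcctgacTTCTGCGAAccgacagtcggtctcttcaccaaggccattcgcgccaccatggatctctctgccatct
Zc3h12a (chr4:125127832-125128131, minus strand): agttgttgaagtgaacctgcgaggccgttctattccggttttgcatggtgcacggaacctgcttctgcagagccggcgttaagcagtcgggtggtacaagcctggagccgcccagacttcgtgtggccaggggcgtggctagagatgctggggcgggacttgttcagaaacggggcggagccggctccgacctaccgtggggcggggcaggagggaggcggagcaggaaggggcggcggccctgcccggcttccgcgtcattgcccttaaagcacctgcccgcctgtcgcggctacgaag
Zc3h12c (chr9:52168357-52168656, minus strand): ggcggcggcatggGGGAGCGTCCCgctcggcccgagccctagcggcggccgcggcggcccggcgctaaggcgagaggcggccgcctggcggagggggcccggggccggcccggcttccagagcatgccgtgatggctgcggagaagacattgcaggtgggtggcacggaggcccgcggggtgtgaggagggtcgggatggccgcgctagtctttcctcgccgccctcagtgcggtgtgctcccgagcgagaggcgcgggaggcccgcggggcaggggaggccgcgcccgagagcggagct
Rc3h1 (chr1:160906161-160906460, plus strand): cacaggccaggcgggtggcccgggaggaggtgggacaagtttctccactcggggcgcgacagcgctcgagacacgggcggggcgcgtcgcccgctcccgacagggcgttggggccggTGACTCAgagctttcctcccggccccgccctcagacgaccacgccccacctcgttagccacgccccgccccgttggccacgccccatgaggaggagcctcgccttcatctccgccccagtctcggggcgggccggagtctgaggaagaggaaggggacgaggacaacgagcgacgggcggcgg
The motifs searched on both strands were the NF-kB motif (GGGA, any 4 bases, CC), the AP-1 motif TGANTCA, the CRE motif TGACGTCA, the GAS motif TTCNNNGAA bound by STAT factors, the ISRE motif (GAAA, any 2 bases, GAAA), the EGR motif GCGTGGGCG and the TATA motif TATAAA. The Zfp36 window held an NF-kB match on the opposite strand beginning at position -100 from the start and a GAS match beginning at -17. The Zc3h12c window held overlapping NF-kB matches beginning at -237 and -236, and the Rc3h1 window held an AP-1 match beginning at -133. The Zc3h12a window held none of these letters. Over all 32851 windows of that length in the table, 20.7% held the NF-kB motif, 8.3% the GAS motif and 7.81% the AP-1 motif, so such matches are common. The CRE, ISRE, EGR and TATA motifs were in 1.79%, 3.44%, 0.612% and 13.6% of all windows and in none of the 4 shown. Among the members not printed, Zfp36l1 had an AP-1 match at -129 and a TATA match at -29, Rc3h2 had an NF-kB match at -11, and Elavl1 had no match. A window was matched for 7 of the 8 genes, all but Zfp36l2.

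The LPS array was set against Control to describe how the regulators respond to LPS itself. They split in 3 ways: Zfp36, Zc3h12a and Zc3h12c were higher, Zfp36l2 and Zfp36l1 were lower, and Rc3h1, Rc3h2 and Elavl1 were under 2-fold. Against a background of 8.24% of genes higher and 7.2% lower, 3 of the 8 were higher and 2 lower. The median log2 ratio of the 8 was 0.16, and that of all genes was -0.12.

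Zfp36, which encodes TTP, had log2 signals of 12.29 with LPS/zVAD/Nec-1, 12.75 with LPS/zVAD, 12.20 with LPS and 9.52 in Control. It was high on all 3 arrays with LPS and low in Control, 6.40-fold higher with LPS than in Control, a ratio that ranked 217 from the top of the 12203 genes. Zc3h12a, the Regnase-1 gene, had log2 signals of 9.71 with LPS/zVAD/Nec-1, 10.15 with LPS/zVAD, 10.05 with LPS and 7.36 in Control. Its LPS ratio was 6.47-fold, next to that of Zfp36 at rank 216, and again Control was the single low array. Zc3h12c, the Regnase-3 gene, stood at 10.79 with LPS/zVAD/Nec-1, 11.63 with LPS/zVAD, 10.71 with LPS and 8.51 in Control. The LPS ratio of Zc3h12c was 4.59-fold, and a further probe of the gene gave a log2 ratio of 2.64 where the main one gave 2.20. These 3 genes were at least 2-fold higher than Control on each array with LPS, as were 5.15% of all genes; the 3 ratios share the Control array and are no replicates of each other. No regulator was lower than Control on all 3, as 4.76% of genes were. On the LPS/zVAD/Nec-1 array the same 3 were higher than Control and Zfp36l1 and Zfp36l2 lower, where 6.85% of all genes were higher and 7.68% lower.

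**Figure D1:**
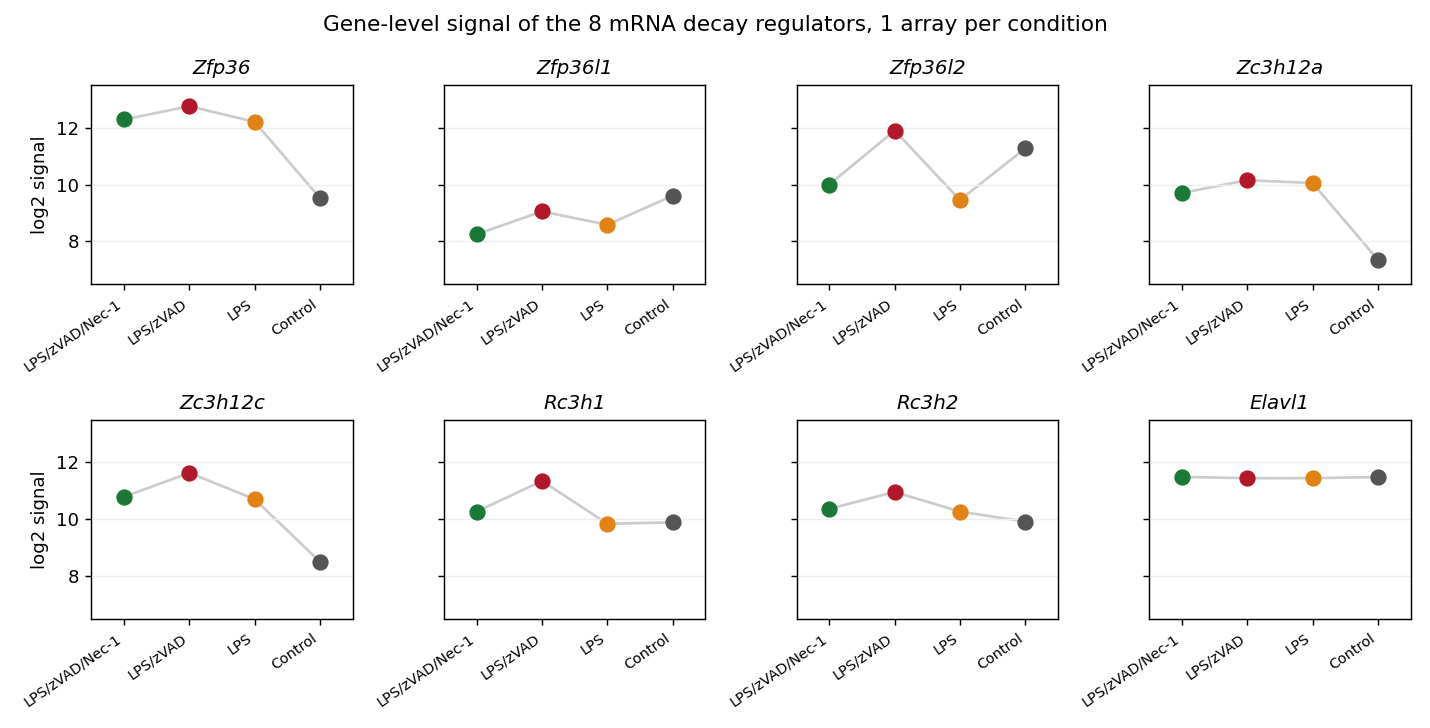
Log2 gene-level signal of each of the 8 regulators (one panel per gene, y axis) on the LPS/zVAD/Nec-1, LPS/zVAD, LPS and Control arrays (x axis), 1 point per array; grey lines join the points of a gene for the eye and there are no error bars because each condition had 1 array. Zfp36, Zc3h12a and Zc3h12c are low in Control alone, Zfp36l2 is low with LPS and with LPS/zVAD/Nec-1, and Elavl1 keeps within 0.05 log2 units.

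The 2 relatives of Zfp36 went the other way. Zfp36l2 had log2 signals of 10.00 with LPS/zVAD/Nec-1, 11.90 with LPS/zVAD, 9.46 with LPS and 11.27 in Control. With LPS it was 3.51-fold under Control, and 146 of the 12203 genes had a lower ratio. Zfp36l1 had log2 signals of 8.25 with LPS/zVAD/Nec-1, 9.06 with LPS/zVAD, 8.59 with LPS and 9.61 in Control. Its log2 ratio of -1.02 with LPS lay at the threshold and was -0.92 with each array centred on its median and -0.93 after cyclic loess, which left 3 members higher and 1 lower. Of all genes, 1127 were then higher and 698 lower with centred arrays, and 1088 and 711 after cyclic loess. With all 3 agents Zfp36l1 was lowest, 2.55-fold under Control.

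The Roquin genes and Elavl1 stayed within 2-fold with LPS. Rc3h1 stood at 9.85 with LPS and 9.89 in Control on its main probe, a log2 ratio of -0.05 whose sign changed between scalings, while its further probe gave 0.40. Rc3h2 stood at 10.27 with LPS and 9.92 in Control. Elavl1, the HuR gene, had log2 signals of 11.49 with LPS/zVAD/Nec-1, 11.44 with LPS/zVAD, 11.45 with LPS and 11.48 in Control. Its 4 signals spanned 1.03-fold, the narrowest range of the 8, and no direction is given for it: over the scalings and probe rules its log2 ratio ran between -0.16 and 0.07 for LPS against Control, between -0.05 and 0.10 for LPS/zVAD against LPS and between 0.01 and 0.08 for LPS/zVAD/Nec-1 against LPS/zVAD.

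The LPS/zVAD array was compared with LPS to describe how levels differed when zVAD was present. Cell numbers and survival were not measured in the data used here. A change in which cells remained and a change within cells therefore cannot be told apart. Zfp36l2 and Rc3h1 were higher by 2-fold or more and no regulator was lower, where 3.25% of all genes were higher and 3.59% lower. The balance of all genes was 396 higher and 438 lower as deposited, 433 and 316 after quantile normalization and 462 and 312 after cyclic loess. The members' median log2 ratio was 0.62 and that of all genes -0.05. Zfp36l2 was 5.42-fold higher with LPS/zVAD than with LPS, at rank 45 of the 12203 genes, and its LPS/zVAD signal was 1.55-fold that of Control. The 5.42-fold ratio shares the LPS array with LPS against Control, where Zfp36l2 was 3.51-fold lower. An error on that array would enter both with opposite signs. Rc3h1, the Roquin-1 gene known for its mutation in the autoimmune sanroque mouse, was at 10.27 with LPS/zVAD/Nec-1, 11.35 with LPS/zVAD, 9.85 with LPS and 9.89 in Control. LPS/zVAD was its single high array, 2.83-fold above LPS, and the further Rc3h1 probe had log2 signals of 7.74, 8.89, 7.74 and 7.34 in the same order. That probe gave a log2 ratio of 1.15 for LPS/zVAD against LPS and had the same high array as the main one.

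The next ratios in size belonged to Zc3h12c, Rc3h2, Zfp36 and Zfp36l1, all under 2-fold as deposited. Zc3h12c was 1.90-fold higher with LPS/zVAD than with LPS, a log2 ratio of 0.93 that came to 1.05 after cyclic loess. Its further probe gave 0.85 as deposited. Rc3h2, the Roquin-2 gene, stood at 10.37 with LPS/zVAD/Nec-1, 10.96 with LPS/zVAD, 10.27 with LPS and 9.92 in Control. It was 1.61-fold higher with LPS/zVAD than with LPS and 2.05-fold higher than Control. Zfp36 had a log2 ratio of 0.55 and Zfp36l1 one of 0.47. Zc3h12a was at 10.15 with LPS/zVAD and 10.05 with LPS, a log2 ratio of 0.10. LPS/zVAD was the highest of the 4 arrays for 6 of the 8 regulators, all but Zfp36l1 and Elavl1, and for 20.7% of all genes. This order has no size rule, and for Zc3h12a it rests on the log2 difference of 0.10. Because the members were chosen with earlier results of these data known, their count was not tested against that share. Against Control, 5 regulators were higher with LPS/zVAD and none lower, where 8.79% of all genes were higher and 10.7% lower (1073 and 1304 genes as deposited, 1287 and 906 after cyclic loess).

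**Figure D2:**
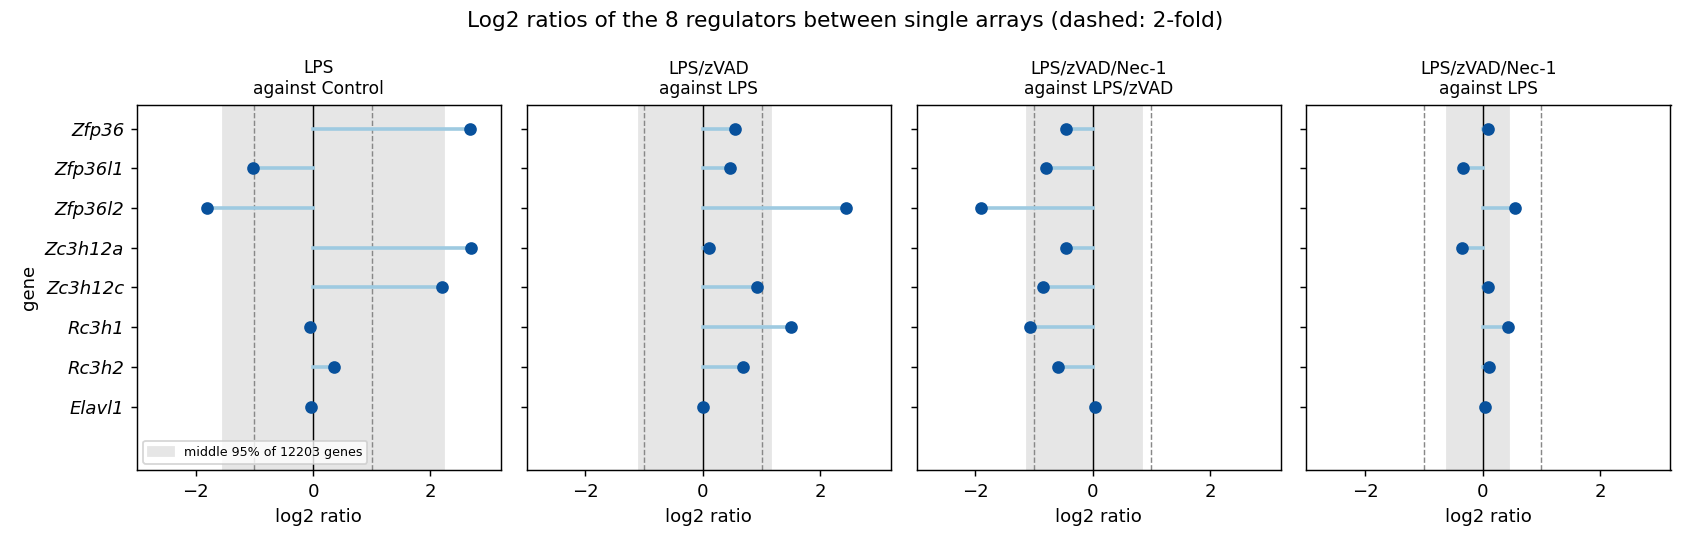
Log2 ratio (x axis) of each regulator (rows) in 4 comparisons of single arrays (panels), with the range of the middle 95% of 12203 genes in grey and dashed lines at 2-fold. Zfp36l2 and Rc3h1 lie right of the grey range for LPS/zVAD against LPS (5.42-fold and 2.83-fold), and Zfp36l2 lies left of it once Nec-1 is added (-1.90).

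The LPS/zVAD/Nec-1 array was compared with LPS/zVAD to describe which of these levels differed when Nec-1 was added, with the same limit on cell numbers and survival. The same pair, Zfp36l2 and Rc3h1, was lower by 2-fold or more and no regulator was higher, where 3.32% of all genes were lower and 1.14% higher. This comparison shares the LPS/zVAD array with the one before, so an error on that array would enter both with opposite signs. The members' median log2 ratio was -0.70 and that of all genes 0.07. With Nec-1 added Zfp36l2 was 3.72-fold lower, and 60 genes had a lower ratio. Rc3h1 was 2.11-fold lower, with a log2 ratio of -1.07 on the main probe and -1.15 on the further one. Zc3h12c and Zfp36l1 had log2 ratios of -0.84 and -0.80, Rc3h2 one of -0.59, Zfp36 one of -0.46 and Zc3h12a one of -0.45. Zc3h12a thus differed more between these arrays than between LPS/zVAD and LPS.

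Setting LPS/zVAD/Nec-1 against LPS shows what remained with both inhibitors present. None of the 8 differed by 2-fold, where 0.0738% of all genes were higher and 0.541% lower. Zfp36l2 stayed furthest up, at a log2 ratio of 0.54 that is above 98.9% of genes and leaves 22.3% of its LPS/zVAD difference from LPS. Rc3h1 had a ratio of 0.43 on the main probe and 0.00 on the further one, so the remainder for this gene depends on the probe. Zfp36, Zc3h12c and Rc3h2 had ratios of 0.09, 0.09 and 0.10. The further Zc3h12c probe gave -0.04, so no direction is given for that gene. Zc3h12a and Zfp36l1 were below LPS, at -0.35 and -0.33, ratios under which lay 8.94% and 9.76% of genes. The middle 95% of all genes lay between -0.61 and 0.45 in this comparison, and 7 of the 8 members lay inside that range. As a measure of probe error, 593 genes with a pair of probes above the low-signal level on all arrays gave ratios that differed between the probes by a median of 0.09, with 90% of the differences under 0.34, which covers probes and not cultures.

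Of the 8 profiles, that of Zfp36 was nearest to those of Zc3h12a and Zc3h12c. After each gene was centred on its own mean, the root mean square difference over the 4 arrays was 0.22 log2 units between Zfp36 and either of them and 0.29 between the Regnase genes. The Roquin genes differed by 0.29 from each other. Zfp36 differed from Zfp36l1 by 1.68 and from Zfp36l2 by 1.75, although the 3 are close relatives. Among all genes past the filter, the profiles most like that of Zfp36 were those of Trim21 (0.05), Parp14 (0.06), Cflar, Tmem67 and Daxx (0.07 each). For Zc3h12c they were Peli1 (0.07), Mier3 (0.08), Arid5a (0.10), Arid5b (0.10) and Rnf135 (0.12). For Zc3h12a they were Gch1 (0.07), Batf2, Pfkfb3 and Tlk2 (0.08 each) and Oas2 (0.11). With 4 arrays many genes share a profile by their LPS response alone, so the order is a description.

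Other proteins that bind AU-rich elements or stem-loops were represented by 23 measured genes. For LPS against Control 3 of the 23 were higher and 0 lower (median log2 ratio -0.05), where 8.24% of all genes past the filter were higher and 7.2% lower. Those were Arid5a, which is known to protect Il6 transcripts from Regnase-1 (9.57 with LPS and 7.39 in Control), N4bp1, which carries a Regnase-like nuclease domain (11.98 and 10.08), and Zc3h12d, a further Regnase relative (10.30 and 8.56). For LPS/zVAD against LPS, where 3.25% of genes were higher and 3.59% lower, Arid5a was higher (10.73 and 9.57) and Tia1, a translational silencer of AU-rich transcripts, was lower (7.57 and 8.74). With LPS/zVAD/Nec-1 against LPS/zVAD, Tia1 was higher (8.58 and 7.57) and Arid5a had a log2 ratio of -0.91. Arid5a had the same order of arrays as Zc3h12c, with LPS/zVAD/Nec-1 a log2 difference of 0.26 above LPS.

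The decay enzymes and their cofactors were represented by 56 measured genes, of which 4 were higher and 5 lower for LPS against Control, shares near the 8.24% and 7.2% of all genes. For LPS/zVAD against LPS 2 of the 56 were higher and 0 lower, beside 3.25% and 3.59% of all genes, and for LPS/zVAD/Nec-1 against LPS/zVAD 0 were higher and 1 lower, beside 1.14% and 3.32%. Of 20 deadenylation genes 1 was higher for LPS against Control, Btg2, an antiproliferative cofactor of CCR4-NOT, by a log2 ratio of 1.41. With LPS/zVAD against LPS, Noct, a circadian relative of the deadenylases, was higher (9.96 and 8.61), as was Cnot4, the ubiquitin ligase linked to CCR4-NOT (10.94 and 9.84). Noct was lower again with Nec-1 (8.68 with LPS/zVAD/Nec-1 and 9.96 with LPS/zVAD). Of 20 decapping and 5'-to-3' decay genes, 3 were higher for LPS against Control: the exonuclease gene Xrn1 (10.62 and 8.94), and Dcp1a (10.40 and 8.78) and Dcp2 (10.29 and 8.90) of the decapping complex. Lsm2, of the Lsm ring, was the single one lower (7.05 and 8.35), and 0 of the 20 differed by 2-fold in the zVAD or Nec-1 steps. The exosome and 3'-to-5' decay list of 16 had 4 members lower for LPS against Control and 0 higher (median -0.46). They were Exosc2 (8.20 and 9.71), Exosc7 (6.77 and 8.10), the nuclease gene Dis3 (8.19 and 9.39) and Exosc5 (8.18 and 9.22). None of the 16 differed by 2-fold in the zVAD or Nec-1 steps. Their median log2 ratio was -0.26 for LPS/zVAD against LPS, where that of all genes was -0.05. It was 0.29 for LPS/zVAD/Nec-1 against LPS/zVAD, where that of all genes was 0.07.

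**Figure D3:**
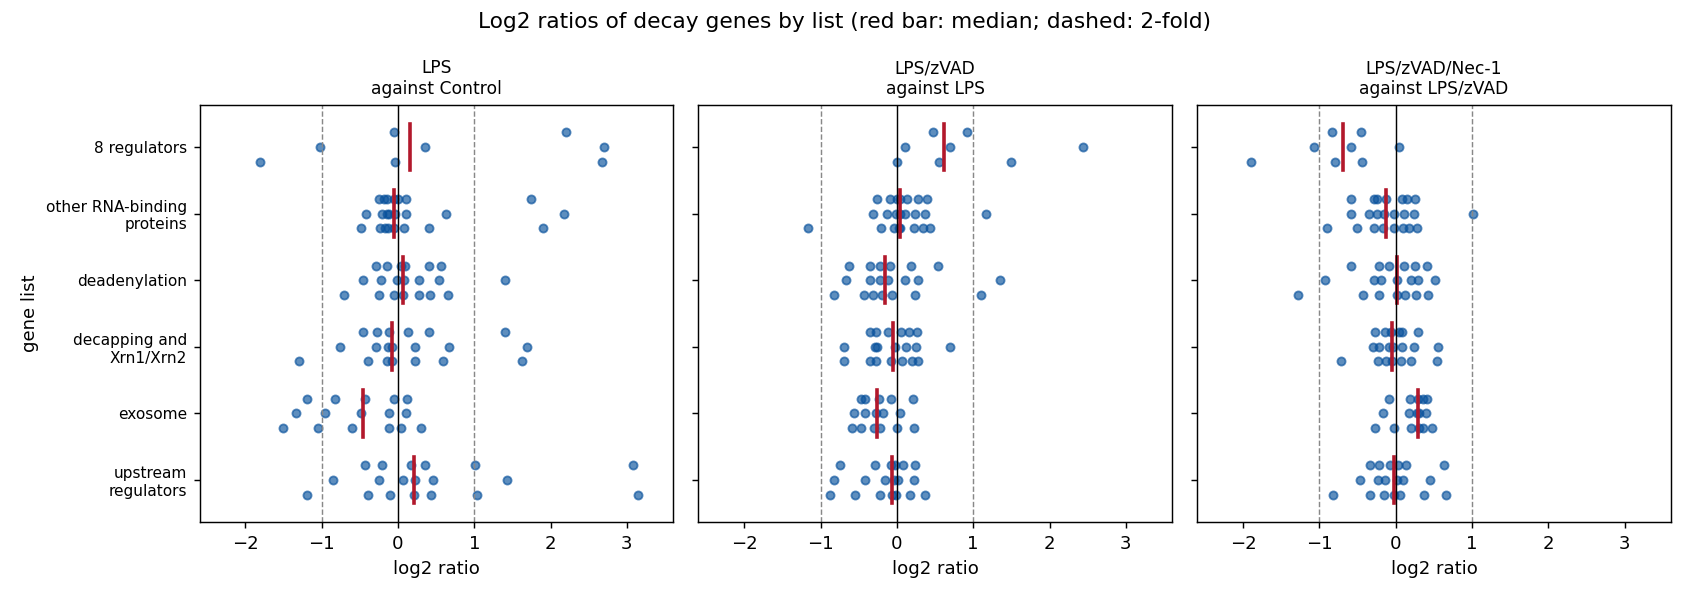
Log2 ratios (x axis) of all measured genes in each list (rows; 1 point per gene, red bar at the median) for 3 comparisons of single arrays, with dashed lines at 2-fold. The 8 regulators have the highest median of the 6 lists for LPS/zVAD against LPS (0.62) and the lowest for LPS/zVAD/Nec-1 against LPS/zVAD (-0.70), while the exosome list lies lowest for LPS against Control (-0.46). The members and lists were chosen with earlier results of these data known, and the zVAD and Nec-1 steps share the LPS/zVAD array, so the ranking is a description.

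Kinases, phosphatases, ligases and proteases that act on the regulators' proteins, or on the kinases upstream of them, made up a list of 19 measured genes. For LPS against Control, 5 of the 19 were higher and 1 lower, beside 8.24% and 7.2% of all genes. Dusp1, the phosphatase that ends p38 signalling and so favours active TTP, stood at 12.69 with LPS and 9.55 in Control, and Malt1, the protease that cleaves Regnase-1 and the Roquins, at 12.37 and 9.28. Tbk1 (10.60 and 9.16), Btrc, of the ligase that degrades Regnase-1 (10.35 and 9.32), and Mapkapk2, the kinase that phosphorylates TTP (12.75 and 11.74), were the others that were higher. Map2k6, a kinase upstream of p38, was lower (6.03, under the low-signal level, and 7.23). In the zVAD and Nec-1 steps 0 of the 19 differed by 2-fold, where the shares over all genes, 3.25% higher and 3.59% lower and then 1.14% and 3.32%, come to under 1 gene of 19 in each direction. Mapk14, which encodes p38 alpha, had the lowest zVAD ratio (9.13 with LPS/zVAD and 10.00 with LPS), and Malt1 the lowest Nec-1 ratio (11.77 with LPS/zVAD/Nec-1 and 12.59 with LPS/zVAD).

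Known target transcripts were listed for each family, with overlaps: 8 of the 24 TTP targets and 8 of the 20 Regnase-1 targets are the same genes, and so are 8 of the 20 Regnase-1 and 8 of the 13 Roquin targets. The 24 TTP and 16 HuR targets share 8 genes as well. Together the lists hold 47 measured genes, 41 past the filter, Zfp36 and Zc3h12a among them. Of the 47, 23 were higher and 4 lower for LPS against Control, beside 8.24% and 7.2% of all genes, and 8 of those 23 were under the low-signal level in Control. For LPS/zVAD against LPS, 12 were higher and 3 lower, beside 3.25% and 3.59% of all genes. Csf2, Il2 and Lif, 3 of those 12, were above the low-signal level on the LPS/zVAD array alone and so passed the filter only through the array where they are high; 9 of the 12 are left without them. For LPS/zVAD/Nec-1 against LPS/zVAD, 1 of the 47 was higher and 10 lower, beside 1.14% and 3.32% of all genes, and 4 of those 10 were under the low-signal level with LPS/zVAD/Nec-1. The lists are of genes known for their part in inflammation, so their counts were not tested against those shares. Of the 24 TTP targets measured, 10 were higher and 1 lower for LPS/zVAD against LPS (median log2 ratio 0.29), and 7 of those 10 are left without the same 3 genes. Cxcl1, a neutrophil chemokine, stood at 10.74 with LPS/zVAD/Nec-1, 13.18 with LPS/zVAD, 10.00 with LPS and 8.38 in Control. Plk2, a kinase gene, stood at 13.24 with LPS/zVAD and 10.48 with LPS. Lif and Il2, both cytokines, stood at 10.19 and 8.07 with LPS/zVAD and under the low-signal level with LPS, at 5.51 and 4.75. Tnf was at 13.07 with LPS/zVAD/Nec-1, 13.70 with LPS/zVAD, 12.57 with LPS and 10.75 in Control. Its order of arrays was that of Zfp36, and Cxcl1 shared it. Other TTP targets did not: the LPS array was the highest for Il6, Il1b and Cxcl3. The share of all genes in this order was not counted, and a link between Zfp36 and Tnf was not tested.

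Targets of the other regulators differed among themselves. For LPS/zVAD against LPS, 3.25% of all genes past the filter were higher and 3.59% lower. The counts below are over all measured targets, of which 16 of 20 for Regnase-1, 11 of 13 for Roquin and 16 of 16 for HuR passed that filter. Of the 20 Regnase-1 targets measured, 4 were higher and 3 lower for LPS/zVAD against LPS (median log2 ratio 0.19), and 2 of those 4 are left without Csf2 and Il2. All 4 higher genes, Csf2, Il2, Cxcl1 and Cxcl2, are also TTP targets. Il12b was at 12.00 with LPS/zVAD/Nec-1, 9.62 with LPS/zVAD, 12.17 with LPS and 5.94 in Control, and Il6 at 12.80 with LPS/zVAD and 12.88 with LPS. Of the 13 Roquin targets measured, 2 were higher and 0 lower for LPS/zVAD against LPS (median 0.30). Those were Tnf, also a TTP target, and the nuclear receptor gene Nr4a3 (9.93 with LPS/zVAD and 8.13 with LPS). Irf4, a transcription factor gene, stood at 6.47 with LPS/zVAD/Nec-1, 7.74 with LPS/zVAD, 6.90 with LPS and 5.82 in Control. Of 16 HuR targets, 5 were higher and 0 lower for LPS/zVAD against LPS (median 0.30), among them Sirt1, a deacetylase gene, at 9.05 with LPS/zVAD/Nec-1, 10.55 with LPS/zVAD, against 8.72 with LPS. Elavl1 differed by no more than 0.05 between any 2 arrays as deposited. Transcript lifetimes and protein levels were not measured in the data used here. Whether the level of a regulator bears on those of its targets was not tested.

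**Figure D4:**
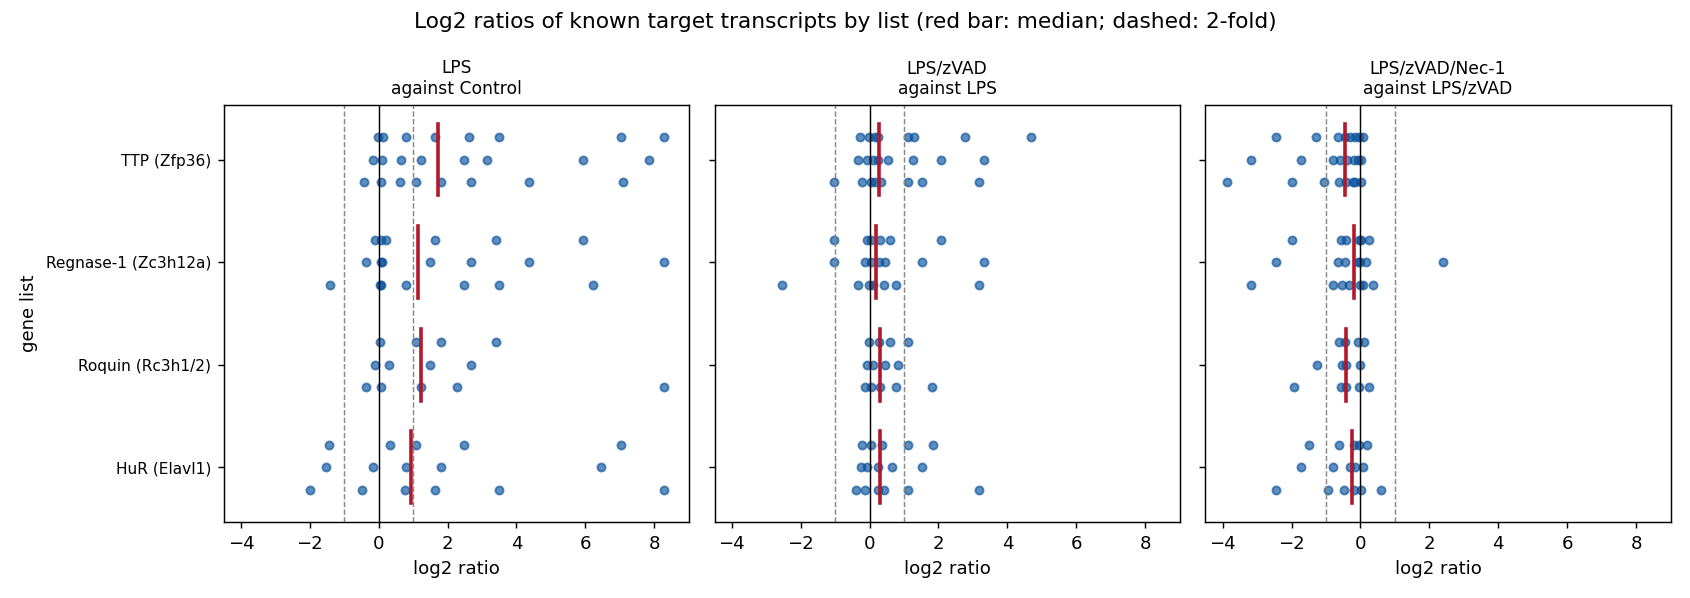
Log2 ratios (x axis) of all measured target transcripts, by the protein that binds them (rows; 1 point per gene, red bar at the median), for 3 comparisons of single arrays with dashed lines at 2-fold; a gene can stand in several rows. The medians lie between 0.19 and 0.30 for LPS/zVAD against LPS and all lie under 0 for LPS/zVAD/Nec-1 against LPS/zVAD, steps that share the LPS/zVAD array.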

How the data were processed

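Per the submitters' processing notes, the deposited gene-level signals come from Affymetrix Expression Console. The log2 scale of the deposited values was read from their range; the sources used here do not give the version, background correction, normalization or genome build. An unknown normalization can shift every ratio, so 3 further scalings were tried. The table held 35556 probes, of which 21789 had 1 symbol in the platform annotation, 1621 several and 12146 none; only the first were named, and 999 genes had more than 1 probe. Samples were grouped by their titles, and comparisons are differences of log2 signals between single arrays (limma 3.58.1 in R 4.3.3 for scaling, Python 3.11.15 for the rest). The counting code was run on simulated arrays with large differences built in, which checks the code and not the error of single arrays in these data. The members and lists were chosen with earlier results of these data known. The genes named beside the members were drawn from the 4 genes of each list that differed most in each step, not all of which are named, and, for the 3 members with the widest range, the 5 genes most alike (predicted and clone symbols left out). Mapkapk2 was named after its value was seen, and so were other single genes that completed a count.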

Additional observations from a re-analysis of the deposited data

How the results depend on the processing

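Over 5 alternatives (arrays centred on their medians, quantile normalization, cyclic loess, the mean of all probes of a gene, and low signals raised to log2 6.47), all 240 recomputed member ratios moved by less than 1.5-fold, and 0 ratios past 2-fold changed sign. For LPS against Control the median log2 ratio over all genes was -0.01 with centred arrays and -0.12 as deposited. Centring left 1 member lower than Control with LPS, as did cyclic loess and a 3-fold threshold, against 2 as deposited, since Zfp36l1 lies at the threshold. Of all genes, 698 were lower with centred arrays, 711 after cyclic loess and 879 as deposited. For LPS/zVAD against LPS, cyclic loess brought Zc3h12c past 2-fold, at a log2 ratio of 1.05. At 1.5-fold, 4 members were higher with LPS/zVAD than with LPS and 5 lower with LPS/zVAD/Nec-1 than with LPS/zVAD. At 3-fold, 1 was higher and 1 lower in those steps, 3 were higher with LPS/zVAD than in Control, and 0 were lower with LPS/zVAD/Nec-1 than in Control. The shares of all genes at 1.5-fold and 3-fold are not given here. These member counts therefore have no background beside them and show only how the calls move with the threshold. Without the signal filter, the share of all genes past 2-fold was 9.51% for LPS against Control, 4.21% for LPS/zVAD against LPS, 2.74% for LPS/zVAD/Nec-1 against LPS/zVAD and 0.381% for LPS/zVAD/Nec-1 against LPS, beside 15.4%, 6.83%, 4.46% and 0.615% with it. No paired analysis was possible because each group has 1 array.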
